A study of Mus musculus with 8 samples.

Results

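The genes described here are 10 genes of the mouse MHC class I pathway in liver: the classical heavy chains H2-K1 and H2-D1, their shared light chain B2m, and 7 class Ib heavy chains, H2-Q1, H2-Q2, H2-Q4, H2-Q6, H2-Q7, H2-Q10 and H2-T23. They were chosen by name, with no measured value in the rule, though with earlier results of these data known. They are 10 of the 54838 genes in the deposited files. RNA from 8 pieces of liver was measured by bulk RNA sequencing, 4 labelled tumour and 4 labelled non-tumour. All came from male C57BL/6J mice, wild type in genotype, given diethylnitrosamine (DEN), a carcinogen that acts in the liver, into the peritoneum on day 15, and then a high-fat diet (HFD) together with an addition that the labels give only as SW. Both groups share the carcinogen and the diet, so there is no untreated liver for comparison. The labels give 30 weeks, once as the length of the diet and once as the time after injection. They do not tie pieces to mice, and the p-values therefore reflect only how far these libraries differ among themselves, which may be technical.

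Class I molecules are heavy chains that fold around beta-2 microglobulin and a short peptide, and they show peptides from inside the cell to CD8 T cells. Loading takes place in the endoplasmic reticulum, where the TAP transporter brings in peptides cut by the proteasome. The classical molecules are highly variable between mouse strains, while the class Ib molecules of the Q and T regions vary less and include ligands of natural killer cell receptors. In hepatocytes H2-Q10 is made as a secreted class Ib protein. Interferons raise the transcription of many class I genes through short promoter elements, and the regulator NLRC5 acts at their promoters.

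The libraries held 15446690 (non-tumour 3) to 21977052 (tumour 1) counts. Tumour 2 and tumour 4 were near-identical, as were non-tumour 2, 3 and 4: the chi-square per degree of freedom between them was 1.58 to 3.28 in 4 pairs, against 71.7 to 165 in the other 24 pairs. They were therefore counted once, which left 3 tumour profiles (1, 2 with 4, and 3) and 2 non-tumour profiles (1, and 2 with 3 and 4). All means, SDs and tests are over these profiles unless the 8 separate libraries are named. Tumour 3 stood apart from the other tumours: Afp, the fetal liver protein used as a liver tumour marker, was at 1.46 CPM there and at 425 to 841 CPM in the other tumour libraries, against 4.70 to 19.4 CPM in non-tumour libraries. By chi-square per degree of freedom tumour 3 was nearer to every non-tumour library than to any other tumour. The values were 78.1 to non-tumour 1, 113 to 121 to non-tumour 2, 3 and 4, and 160 to 165 to the tumours. CPM is the count of a gene relative to the scaled total of its library. For several genes the log2 fold change is also given without tumour 3.

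The 9 heavy chain genes lie on chromosome 17 of GRCm38 and B2m on chromosome 2 (122147686 to 122153083, plus strand). H2-K1 (33996017 to 34000333, minus strand) lies at one end. H2-D1 (35262730 to 35267499), H2-Q1 (35320405 to 35325099), H2-Q2 (35342242 to 35346762), H2-Q4 (35379617 to 35385290), H2-Q6 (35424850 to 35430055), H2-Q7 (35439155 to 35443773) and H2-Q10 (35470089 to 35474563) follow each other on the plus strand, and H2-T23 (36029773 to 36032855, minus strand) lies at the other end.

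The promoters show what these genes share upstream of their starts, and the stretches below are printed because 5 of them carry the same interferon element. RefSeq promoter windows (GRCm38.p6, 250 bases before to 50 after the start) were found for 9 of the 10 genes; H2-Q1 was not matched. Each stretch has 59 bases, 5′ to 3′ on the gene's strand, with matches to a searched motif in capitals: GGGATTCCC, the core of the class I enhancer A that binds NF-kB proteins, TTTCACTTC, an interferon element of class I genes, or GAAANNGAAA, the interferon-stimulated response element.
H2-K1 (chr17:34000419-34000477, minus strand): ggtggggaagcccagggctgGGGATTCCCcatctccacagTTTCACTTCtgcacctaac
H2-Q6 (chr17:35424658-35424716, plus strand): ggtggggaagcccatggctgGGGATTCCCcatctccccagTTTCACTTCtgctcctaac
H2-Q7 (chr17:35439002-35439060, plus strand): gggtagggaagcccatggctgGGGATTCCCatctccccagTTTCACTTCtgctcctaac
H2-Q4 (chr17:35379424-35379482, plus strand): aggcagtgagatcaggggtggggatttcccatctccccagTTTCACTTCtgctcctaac
H2-Q10 (chr17:35469894-35469952, plus strand): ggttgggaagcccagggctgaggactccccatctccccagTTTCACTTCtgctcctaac
B2m (chr2:122147508-122147566, plus strand): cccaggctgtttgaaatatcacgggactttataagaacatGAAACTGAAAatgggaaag

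Searched on both strands, TTTCACTTC was present in 6 of 9 windows (H2-K1, H2-D1, H2-Q4, H2-Q6, H2-Q7 and H2-Q10) and in 0.522% of the 27025 promoter windows in the table. GGGATTCCC was present in 4 of 9 (H2-K1, H2-D1, H2-Q6 and H2-Q7) and in 0.370% of all windows. The letters GAAANNGAAA were found in the windows of B2m and H2-T23, and in 3.49% of all windows. TGATGAC, the X2 stretch of the X box, was found in 4 of 9 (H2-D1, H2-Q4, H2-Q6 and H2-Q7) against 3.36% of all windows. CCAAT was found in 8 of 9, all but H2-Q10, against 37.9% of all windows. The searched letters other than CCAAT were not in the window of H2-Q2. The stretches around the interferon matches of H2-D1 and H2-T23 lie in an annotated untranslated region of a transcript. They are counted here but were not printed for that reason. These matches describe letters and do not show binding.

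Most of the 10 genes had higher mean levels in tumour than in non-tumour tissue, but none of the differences passed the test after adjustment. H2-Q1 and H2-Q2 differed by over 4-fold in their means and the others by less than 1.5-fold. The summed level of the 10 overlapped between the groups, at 5685 to 7325 CPM in tumour and 5117 to 5950 CPM in non-tumour libraries. The log2 fold change, tumour over non-tumour, was positive for 9 of 10 genes with a median of 0.44, while over all 13650 genes tested 52.2% were positive and the median was 0.01. All 10 passed the filter on low counts; H2-Q2 passed it through the tumour profiles, so that a higher value in tumour was partly built into its entry. By edgeR's quasi-likelihood test 0 of the 10 had an adjusted p under 0.05, and so had 0% of all genes. At an unadjusted p under 0.05 there were 4 of 10 (H2-Q1, H2-Q2, H2-Q4 and H2-Q7, all higher in tumour), against 3.3% of all genes. In 7 of 10 every tumour profile lay above both non-tumour profiles (H2-K1, H2-D1, H2-Q1, H2-Q2, H2-Q4, H2-Q7 and H2-T23), a pattern found in 9.99% of all genes; the opposite pattern was found in 8.34% of all genes and in 0 of the 10. In bulk tissue fewer cells of a type and less RNA per cell cannot be told apart.

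The number passing differed between fits. With the 8 libraries as separate samples, 3 of 10 passed (H2-Q1, H2-Q2 and H2-Q4), against 0.435% of all genes. In a fit added after seeing the data, which changed both choices at once (7 separate libraries, tumour 3 left out), 6 of 10 passed (H2-Q1, H2-Q2, H2-Q4, H2-Q6, H2-Q7 and H2-T23), against 13.6% of all genes. Without the filter on low counts, near-identical libraries counted once, 2 of 10 passed (H2-Q1 and H2-Q2), against 427 of all 24531 genes. The SE of H2-Q1 was 0.28 in that fit and 0.57 with the filter. The fits on separate libraries count near-identical libraries as independent samples, so their p-values are too small.

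**Figure D1:**
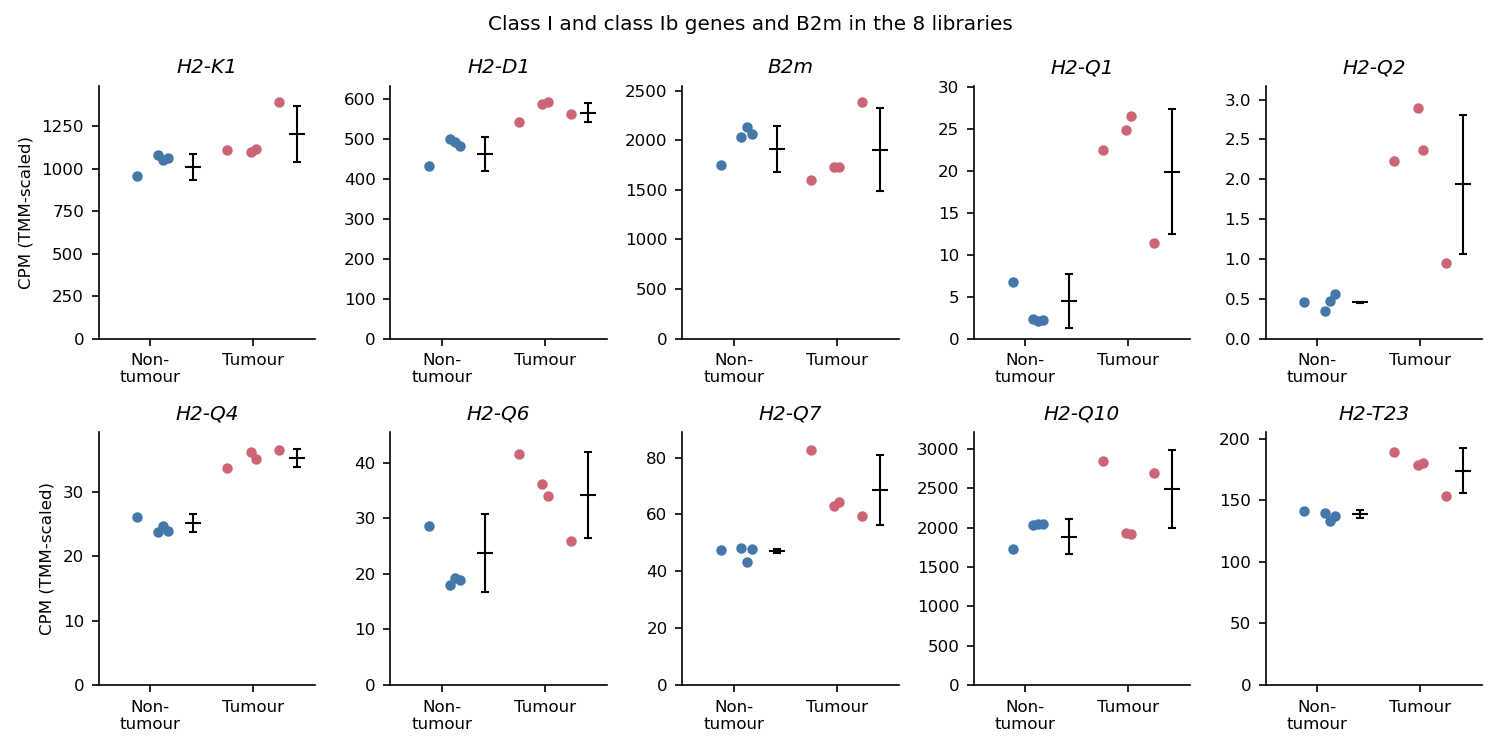
Level of each gene (CPM, y axis, from 0) in the 4 non-tumour and 4 tumour libraries (points), with the mean and SD over 2 non-tumour and 3 tumour profiles (bars). H2-Q1 runs from 11.5 to 26.6 CPM in tumour libraries and from 2.04 to 6.80 CPM in non-tumour libraries, while B2m overlaps between the groups.

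The classical heavy chain H2-K1, one of the pair of classical molecules of this strain, stood at 1111, 1099, 1393 and 1117 CPM in tumours 1 to 4 and at 955, 1080, 1048 and 1060 CPM in non-tumour 1 to 4. Every tumour library was above every non-tumour library, and tumour 3 was the highest. The means were 1204 ± 163 (SD, n = 3) and 1009 ± 76.2 CPM (SD, n = 2), a log2 fold change of 0.25 (SE 0.25, edgeR adjusted p = 0.995). Without tumour 3 the log2 fold change was 0.13.

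H2-D1, the other classical heavy chain, stood at 544, 587, 564 and 595 CPM in tumours 1 to 4 and at 432, 500, 494 and 483 CPM in non-tumour 1 to 4. The libraries of the groups did not overlap here either, and tumour 3 lay among the other tumours. The means were 566 ± 23.4 (SD, n = 3) and 462 ± 42.5 CPM (SD, n = 2), a log2 fold change of 0.28 (SE 0.21, edgeR adjusted p = 0.995). The ratio of H2-K1 to H2-D1 in CPM was 2.13 ± 0.307 in tumour and 2.19 ± 0.036 in non-tumour profiles, which differs by less than the spread among tumours.

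B2m, the light chain that every one of these heavy chains needs, was the only one of the 10 without a positive log2 fold change. It stood at 1597, 1726, 2379 and 1733 CPM in tumours 1 to 4 and at 1749, 2027, 2135 and 2063 CPM in non-tumour 1 to 4. Tumour 3 had the highest value of all, and the other tumour libraries lay below every non-tumour library. The means were 1902 ± 419 (SD, n = 3) and 1912 ± 230 CPM (SD, n = 2), a log2 fold change of -0.02 (SE 0.30, edgeR adjusted p = 0.999). Its sign turned under some settings, and without tumour 3 the log2 fold change was -0.21 (SE 0.25).

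Set per length of exon, as CPM divided by the exon length in kilobases (RPKM), B2m was present at 2.91, 3.09, 3.68 and 3.06 times the sum of H2-K1 and H2-D1 in tumours 1 to 4. In non-tumour 1 to 4 the ratio was 3.81, 3.88, 4.18 and 4.04. Every tumour library lay below every non-tumour library, with means of 3.22 ± 0.402 (SD, n = 3) and 3.92 ± 0.157 (SD, n = 2). No test was run on this ratio, which was chosen after related values were seen.

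H2-Q1 is a class Ib gene of the Q region. It stood at 22.6, 24.9, 11.5 and 26.6 CPM in tumours 1 to 4 (496, 507, 181 and 540 counts) and at 6.80, 2.39, 2.04 and 2.24 CPM in non-tumour 1 to 4 (135, 41, 30 and 36 counts). Tumour 3 was the lowest tumour and non-tumour 1 the highest non-tumour library, and the groups did not overlap. The means were 19.9 ± 7.49 (SD, n = 3) and 4.51 ± 3.24 CPM (SD, n = 2), a ratio of 4.41 and a log2 fold change of 2.18 (SE 0.57, edgeR unadjusted p = 0.00763, adjusted p = 0.995). The size depended on the non-tumour profiles: the log2 fold change was 3.14 without non-tumour 1, 1.55 without non-tumour 2, 3 and 4, and 2.47 without tumour 3. With 8 separate libraries it was 2.64 (edgeR adjusted p = 0.0394).

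H2-Q2, its neighbour on the chromosome, was the least abundant of the 10. It stood at 2.23, 2.89, 0.950 and 2.37 CPM in tumours 1 to 4 and at 0.454, 0.349, 0.477 and 0.561 CPM in non-tumour 1 to 4, which rests on 49, 59, 15 and 48 counts against 9, 6, 7 and 9 counts. The groups did not overlap and, as for H2-Q1, tumour 3 was the lowest tumour. The means were 1.94 ± 0.877 (SD, n = 3) and 0.458 ± 0.00635 CPM (SD, n = 2), a log2 fold change of 2.08 (SE 0.55, edgeR unadjusted p = 0.00809, adjusted p = 0.995). With 8 separate libraries it was 2.19 (edgeR adjusted p = 0.0465).

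H2-Q4, also of the Q region, stood at 33.7, 36.2, 36.5 and 35.2 CPM in tumours 1 to 4 and at 26.1, 23.8, 24.7 and 24.01 CPM in non-tumour 1 to 4, and here tumour 3 did not stand apart. The means were 35.3 ± 1.41 (SD, n = 3) and 25.1 ± 1.37 CPM (SD, n = 2), a ratio of 1.40 and a log2 fold change of 0.48 (SE 0.15, edgeR unadjusted p = 0.0150, adjusted p = 0.995). With 8 separate libraries the log2 fold change was 0.52 (edgeR adjusted p = 0.0331). A gene annotated antisense to it, Gm11131, is told apart from it by the strand setting of the counting.

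H2-Q6 and H2-Q7 encode chains of the Qa-2 antigen, which is held in the membrane by a lipid anchor. H2-Q7 stood at 82.6, 63.0, 59.6 and 64.2 CPM in tumours 1 to 4 and at 47.5, 48.3, 43.4 and 47.8 CPM in non-tumour 1 to 4. The groups did not overlap, with means of 68.6 ± 12.3 (SD, n = 3) and 47.0 ± 0.701 CPM (SD, n = 2) and a log2 fold change of 0.54 (SE 0.20, edgeR unadjusted p = 0.0342, adjusted p = 0.995). H2-Q6 stood at 41.5, 36.3, 25.97 and 34.1 CPM in tumours 1 to 4 and at 28.7, 18.0, 19.3 and 19.0 CPM in non-tumour 1 to 4. Its groups overlapped, since non-tumour 1 lay above tumour 3. Its log2 fold change was 0.53 (SE 0.27, edgeR adjusted p = 0.995), and 0.69 (SE 0.23) without tumour 3. It was 0.85 without non-tumour 1 and 0.25 without non-tumour 2, 3 and 4.

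The 5 genes H2-Q1, H2-Q2, H2-Q4, H2-Q6 and H2-Q7 summed to 54.0 ± 8.28 RPKM in tumour (SD, n = 3) and 33.9 ± 5.19 RPKM in non-tumour profiles (SD, n = 2). H2-Q1 made up 12.3%, 15.2%, 8.53% and 16.4% of their counts in tumours 1 to 4 and 6.21%, 2.57%, 2.27% and 2.40% in non-tumour 1 to 4. The share was higher in each tumour library than in each non-tumour library, and the mean was 12.2% ± 3.64 against 4.31% ± 2.68. No test was run on it.

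H2-Q10, the secreted class Ib chain of the liver, was the most abundant heavy chain. It stood at 2855, 1930, 2701 and 1919 CPM in tumours 1 to 4 and at 1729, 2040, 2049 and 2043 CPM in non-tumour 1 to 4. The groups overlapped: tumours 1 and 3 were above every non-tumour library, and tumours 2 and 4, the near-identical pair, were below non-tumour 2, 3 and 4. The means were 2494 ± 499 (SD, n = 3) and 1887 ± 223 CPM (SD, n = 2), a log2 fold change of 0.39 (SE 0.30, edgeR adjusted p = 0.995). The summed level of 7 hepatocyte markers ran from 119675 to 170425 CPM in tumour libraries and from 95781 to 111434 CPM in non-tumour libraries. Most of that sum is Alb, albumin: without it the sums overlapped, at 24004 to 33104 CPM in tumour and 22558 to 28617 CPM in non-tumour libraries. Of the 7 markers 4 had a positive and 3 a negative log2 fold change, and their part in the H2-Q10 values was not tested.

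H2-T23 encodes the heavy chain of Qa-1, which shows leader peptides of other class I molecules to CD94/NKG2 receptors on natural killer cells. It stood at 189, 179, 154 and 180 CPM in tumours 1 to 4 and at 141, 140, 133 and 137 CPM in non-tumour 1 to 4. The groups did not overlap, and tumour 3 was the lowest tumour. The means were 174 ± 18.3 (SD, n = 3) and 139 ± 3.23 CPM (SD, n = 2), a log2 fold change of 0.32 (SE 0.19, edgeR adjusted p = 0.995). Scaled by library size alone, tumour 3 lay below the highest non-tumour library and the groups overlapped.

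**Figure D2:**
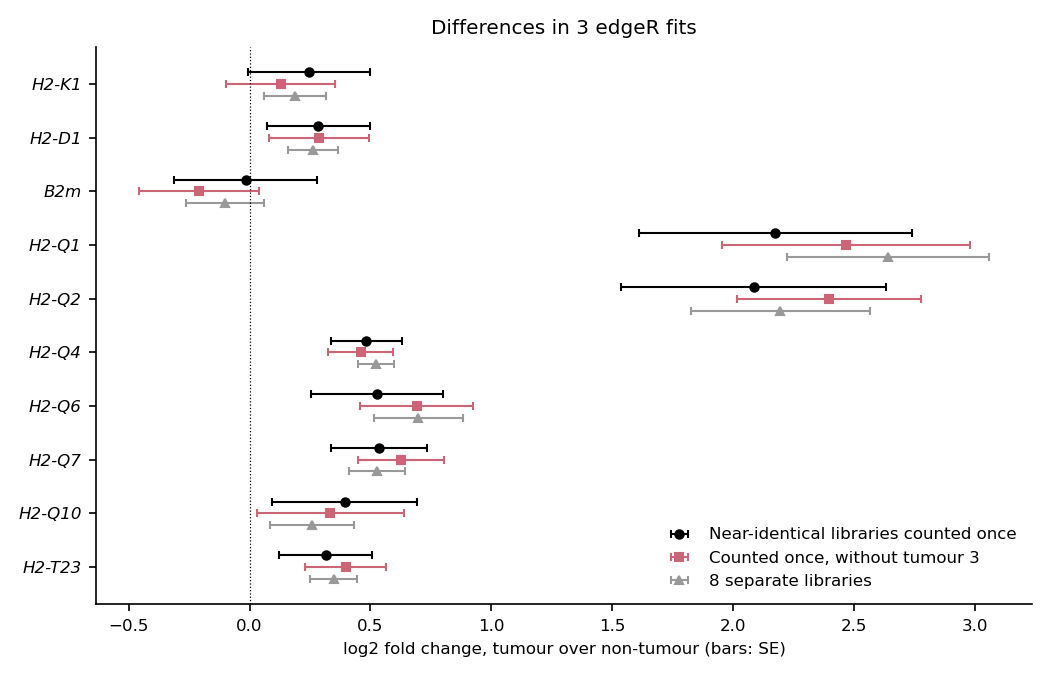
Fitted log2 fold change, tumour over non-tumour (x axis; bars are the SE), of the 10 genes in 3 edgeR fits: near-identical libraries counted once, the same without tumour 3, and 8 separate libraries. H2-Q1 and H2-Q2 lie above 2 in each fit, and B2m has the lowest value in each.

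Tumour 3 did not move the 10 genes in 1 direction. It had the highest tumour value for H2-K1, B2m and H2-Q4 and the lowest for H2-Q1, H2-Q2, H2-Q6, H2-Q7 and H2-T23. Non-tumour 1 differed from the other non-tumour libraries in H2-Q1 and H2-Q6, where it was the highest, and in H2-K1, H2-D1, B2m and H2-Q10, where it was the lowest. It was also the highest of them in H2-Q4 (26.1 against 23.8 to 24.7 CPM) and H2-T23 (141 against 133 to 140 CPM).

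Levels of different genes were compared per exon length. B2m led with 2211 ± 487 RPKM in tumour (SD, n = 3) and 2224 ± 268 RPKM in non-tumour profiles (SD, n = 2). H2-Q10 followed with 574 ± 115 and 434 ± 51.2 RPKM, then H2-K1 with 462 ± 62.6 and 387 ± 29.2 RPKM, and H2-D1 with 220 ± 9.08 and 179 ± 16.5 RPKM. H2-Q10 was above H2-K1 in all 8 libraries, although by mean and SD the pair overlapped. H2-T23 came next with 60.2 ± 6.33 RPKM in tumour profiles and 48.1 ± 1.12 RPKM in non-tumour profiles.

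H2-Q6, H2-Q7 and H2-Q4 lay lower, at 16.4 ± 3.75, 16.1 ± 2.89 and 13.6 ± 0.54 RPKM in tumour and 11.4 ± 3.37, 11.01 ± 0.16 and 9.68 ± 0.53 RPKM in non-tumour profiles, and in tumour they did not differ from one another beyond their spread. In non-tumour tissue H2-Q7 was above H2-Q4 in each library. H2-Q1 was at 6.96 ± 2.62 RPKM in tumour and 1.58 ± 1.13 RPKM in non-tumour profiles. H2-Q2 closed the order at 0.89 ± 0.40 and 0.21 RPKM. The order of the 10 means was the same in tumour and non-tumour. In non-tumour tissue the place of H2-Q6 rested on non-tumour 1, at 13.8 RPKM. In non-tumour 2, 3 and 4 it was at 8.63, 9.25 and 9.09 RPKM, below H2-Q7 and H2-Q4 in each.

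**Figure D3:**
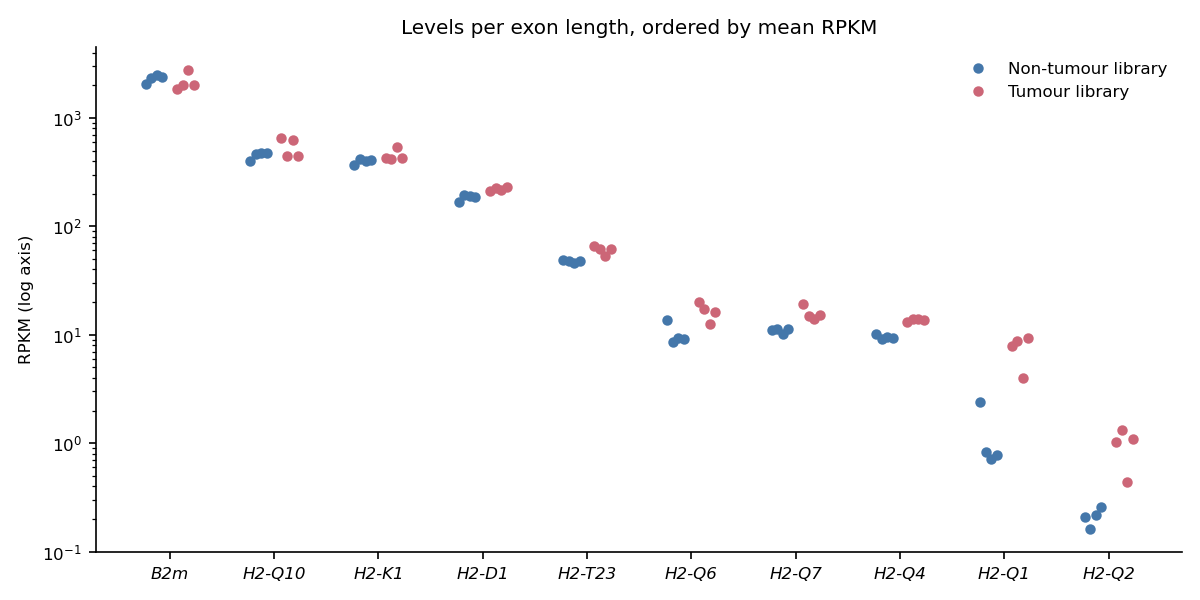
CPM per kilobase of exon (RPKM, y axis, log scale) of the 10 genes in the 8 libraries, ordered by mean level. B2m has 2211 RPKM in the mean of the tumour profiles, and H2-Q2 is lowest with 0.89 RPKM.

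The genes resemble one another in sequence, which bears on how well their reads can be told apart. In the annotated transcripts, 68.0% of the distinct 50-base stretches of H2-Q6 and 73.6% of those of H2-Q7 occurred in no other gene, the lowest shares among the 10. At 100 bases these shares were 89.2% and 88.0%. H2-Q6 shared most with H2-Q7, H2-Q7 with H2-Q10, and H2-Q1 and H2-Q2 with each other (85.0% and 83.9% of their 50-base stretches in no other gene). For H2-K1 and H2-D1 the 50-base shares were 90.4% and 87.2%, and for B2m 100%. Read length is not given in the sources used here, and no option to count multi-mapping reads is in the counting command, so the levels of the Q genes are uncertain to the extent that their reads fall in shared stretches.

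**Figure D4:**
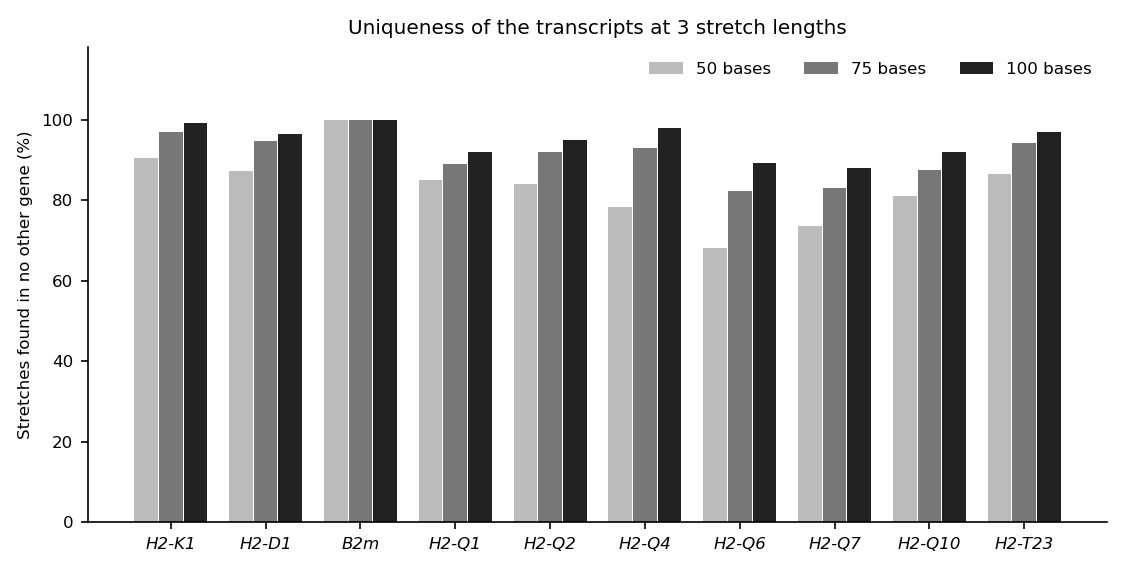
Share of the distinct stretches of 50, 75 or 100 bases of each gene's annotated transcripts that occur in no other gene (y axis, percent). B2m is at 100%, and H2-Q6 has the lowest 50-base share with 68.0%.

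The genes that supply class I molecules with peptide, and their regulators, showed no shared direction. Of 22 listed genes 22 were tested and 0 passed by edgeR after adjustment. At an unadjusted p under 0.05 there were 2, both higher in tumour (Tap1 and Nlrc5), against 3.3% of all genes. The log2 fold change was positive for 9 and negative for 13, with a median of -0.08. Tap1, Tap2 and Nlrc5 had every tumour profile above both non-tumour profiles, and Irf2, an interferon regulatory factor, had every tumour profile below them. That is 3 of 22 above and 1 of 22 below, patterns found in 9.99% and 8.34% of all genes.

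Tap1, a subunit of the peptide transporter, stood at 32.2, 28.5, 31.3 and 28.1 CPM in tumours 1 to 4 and at 23.7, 23.99, 22.2 and 21.3 CPM in non-tumour 1 to 4. The groups did not overlap, and the log2 fold change was 0.40 (SE 0.15, edgeR adjusted p = 0.995). For Tap2, the other subunit, the log2 fold change was 0.17 (SE 0.14), with tumour libraries at 21.9 to 25.99 CPM and non-tumour libraries at 20.2 to 23.8 CPM. Tapbp, tapasin, which holds empty class I molecules to the transporter, had a log2 fold change of -0.09 (SE 0.17).

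Nlrc5, the class I transactivator, stood at 17.6, 14.7, 24.6 and 14.1 CPM in tumours 1 to 4 and at 12.2, 11.1, 11.5 and 10.8 CPM in non-tumour 1 to 4, a log2 fold change of 0.68 (SE 0.26) that was 0.45 without tumour 3. The groups did not overlap and tumour 3 was the highest library.

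The immunoproteasome subunits Psmb8, Psmb9 and Psmb10 were also highest in tumour 3, at 35.0, 29.2 and 31.0 CPM, against 25.7 to 27.3, 15.0 to 17.1 and 17.8 to 20.01 CPM in the other tumours. Non-tumour libraries lay at 24.9 to 27.8, 16.3 to 18.5 and 17.5 to 27.5 CPM. Their log2 fold changes were 0.18, 0.28 and 0.05 (SE 0.18, 0.30 and 0.30), and 0.04, -0.06 and -0.23 without tumour 3. Irf1, an interferon-induced activator of class I genes, had a log2 fold change of 0.15 (SE 0.23), and -0.02 without tumour 3.

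**Figure D5:**
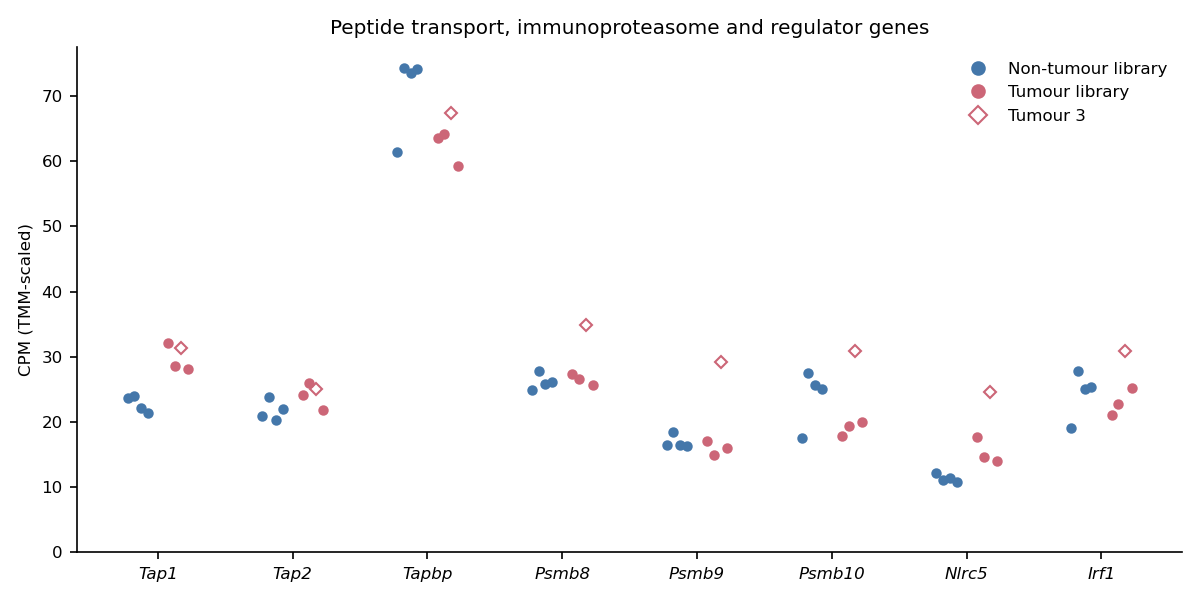
Level (CPM, y axis, from 0) of 8 genes of peptide transport, the immunoproteasome and class I regulation in non-tumour libraries, tumour libraries and tumour 3 (open diamond). Tumour 3 has the highest value of all libraries for Psmb8, Psmb9, Psmb10, Nlrc5 and Irf1, and Tap1 does not overlap between groups.

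Of 34 other class I and class I-like genes listed, 29 were found in the files and 18 were tested; 5 had no count in any library. None passed by edgeR after adjustment, and 1 had an unadjusted p under 0.05, against 3.3% of all genes. That gene was H2-T10, named after its values were seen, with a log2 fold change of 0.44 (SE 0.17). In the list 12 had a positive log2 fold change and 6 a negative one, and the median was 0.17. The Raet1 genes, which encode ligands of the activating receptor NKG2D, had the lowest log2 fold changes. Raet1e stood at 2.64, 5.69, 5.07 and 5.47 CPM in tumours 1 to 4 and at 3.58, 22.5, 26.5 and 22.8 CPM in non-tumour 1 to 4, a log2 fold change of -1.65 (SE 0.73). For Raet1d the tumour libraries gave 3.77, 7.31, 9.12 and 7.59 CPM and the non-tumour libraries 3.12, 30.5, 30.6 and 27.8 CPM, in order of number, a log2 fold change of -1.30 (SE 0.82). In both genes non-tumour 1 was as low as the tumours, so the groups overlapped. The Raet1 genes overlap each other on chromosome 10 and their reads may not be told apart.

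Few genes on the list of class I receptors and related leukocyte receptors had counts enough to test. Of 15 listed genes 6 were tested and 0 passed by edgeR after adjustment, with 0 at an unadjusted p under 0.05. Of the 6, 4 had a positive and 2 a negative log2 fold change, among them Pirb at -0.50 (SE 0.58). Among genes with a mean of at least 1 CPM, Lilrb4a and Lilr4b, leukocyte receptors of the immunoglobulin family, differed most. Their log2 fold changes were 0.88 (SE 0.40) and 0.82 (SE 0.40), and 0.77 (SE 0.42) and 0.50 (SE 0.35) without tumour 3. Cd8a, a chain of the CD8 coreceptor that binds class I molecules, had a mean below 1 CPM and was named after its values were seen. It had 5, 6, 0 and 11 counts in tumours 1 to 4 and 4, 29, 17 and 24 counts in non-tumour 1 to 4, so the groups overlapped, with a log2 fold change of -1.83 (SE 1.049). Of 23 interferon-response genes 21 had a positive log2 fold change, with a median of 0.28, and 0 passed by edgeR after adjustment. At an unadjusted p under 0.05 there were 2, against 3.3% of all genes. Ifit1 was at 13.9 ± 3.47 CPM in tumour (SD, n = 3) and 7.62 ± 3.19 CPM in non-tumour profiles (SD, n = 2), a log2 fold change of 0.87 (SE 0.33). Mx1 was at 1.73 ± 0.425 and 0.989 ± 0.597 CPM, a log2 fold change of 0.83 (SE 0.52). Psmb8 and Psmb9 are on both this list and the peptide supply list.

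Markers of cells that carry high class I levels were summed per library. Leukocyte markers (7 genes) ran from 110 to 128 CPM in tumour and from 128 to 193 CPM in non-tumour libraries, and T and NK cell markers (13 genes, with Ncr1, Klrb1c and Gzma at 0 in at least 1 library) from 7.82 to 10.7 and from 11.2 to 11.7 CPM. The leukocyte ranges meet at 128 CPM, and the T and NK cell ranges overlapped without Cd4, at 6.28 to 9.02 CPM in tumour and 7.497 to 8.38 CPM in non-tumour libraries. Without Lcp1 the leukocyte sum was 45.7 to 62.5 CPM in tumour libraries and 43.1 to 106 CPM in non-tumour libraries. Of the tested T and NK cell markers 4 had a positive and 6 a negative log2 fold change. Kupffer cell and macrophage markers (11 genes) ran from 306 to 448 CPM in tumour libraries; non-tumour 1 was at 1030 CPM and the other non-tumour libraries at 341 to 344 CPM. Sinusoidal endothelial markers (8 genes) ran from 160 to 209 CPM in tumour libraries. Non-tumour 1 was at 336 CPM and the other non-tumour libraries at 143 to 148 CPM. B cell markers (6 genes) ran from 30.4 to 39.8 and from 16.1 to 37.0 CPM, and cholangiocyte markers (7 genes) from 22.7 CPM in tumour 3 to 405 CPM in tumour 1, against 33.1 to 39.9 CPM in non-tumour libraries. The part of these cells in the class I values was not tested.

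Genes outside the group with the most similar profiles were found by the root mean square distance of centred log2 CPM over the 5 profiles, among 9005 genes with a mean of at least 5 CPM. For H2-K1 these were Mrpl47 (0.019), Nol7 (0.019) and Exosc1 (0.021), for H2-Q10 Avpi1 (0.052), Sertad1 (0.065) and Snhg6 (0.076), and for H2-Q1 Tceal8 (0.238), Pls1 (0.275) and Smpd3 (0.309). The distances are in log2 units, and the likeness over 5 profiles is a description.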

How the data were processed

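Bulk RNA was sequenced from 4 tumour and 4 non-tumour liver samples. The deposited values are raw read counts per gene. Per the file headers, the authors counted them with featureCounts 1.6.2 over exons of Ensembl release 95 with strand setting 2; the submitters' processing notes name STAR 2.5.0, Subread 1.6.2 and GRCm38. Symbols were matched for 54723 of 54838 gene IDs, and 203 IDs shared a symbol.

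The members and lists were chosen with earlier results of these data known. Library pairs under a chi-square of 10 per degree of freedom (genes with 20 or more reads) were summed; this limit was set after seeing the data. Counts were tested with edgeR 4.0.16 (TMM, filterByExpr with minimum count 10 and total 15, glmQLFTest) in R 4.3.3, with Benjamini-Hochberg adjustment over all tested genes and a threshold of 0.05. Each SE was derived from the F statistic, as the size of the log2 fold change over the square root of F. CPM use TMM-scaled library sizes; 3 counts correspond to 0.137 to 0.194 CPM. Fits were checked on simulated counts. Alternatives used DESeq2 1.42.0 and limma 3.58.1 (voom), other scalings, no filter, and each profile left out.

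Named genes are the 10 members, Tap1, Tap2, Tapbp, Psmb8, Psmb9, Psmb10, Nlrc5 and Irf1, from other lists those that passed or else the 2 largest differences among genes of at least 1 CPM, and the 3 nearest profiles to H2-K1, H2-Q1 and H2-Q10. A gene of the peptide supply and regulator list is not reported here. Stretches shared between transcripts were sought in GENCODE M21 (GRCm38), on the sense strand.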

Additional observations from a re-analysis of the deposited data

How the results depend on the processing

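Over 16 alternatives, 144 of 160 values for the 10 class I genes kept their direction and their side of the threshold, 11 passed where the reported value did not, and 5, all of B2m, changed sign. B2m had log2 fold changes of 0.0053 with 1 library of each near-identical set and 0.0038 with upper-quartile scaling, and -0.21 to 0.116 with 1 profile left out at a time. Of the 8 named peptide supply and regulator genes, 115 of 128 values kept both. No gene passed in the reported fit and the alternatives reuse the same libraries, so keeping the side of the threshold says little. Psmb10 turned to -0.12 with 8 separate libraries. With 1 profile left out the values ran from -0.23 to 0.38 for Psmb10, -0.0587 to 0.441 for Psmb9, -0.0706 to 0.404 for Irf1 and -0.224 to 0.0608 for Tapbp.

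With 8 separate libraries 3 class I genes passed, of 56 genes in all. With no expression filter, which tests many more genes of few counts, 427 of 24531 genes passed. Among them were 2 class I genes (H2-Q1 and H2-Q2), and 2 other class I-like genes that were lower. DESeq2 called 2 genes and 0 of the 10 class I genes, with 4 at an unadjusted p under 0.05, against 577 of all 13650 genes. With voom likewise 0 of the 10 passed, with 4 unadjusted, against 411 of all 13650 genes. Leaving out 1 profile at a time gave 0 to 5 genes in all, with 5 without tumour 3, and 0 of the 10 class I genes each time. An alternative added after seeing the data, 7 separate libraries without tumour 3, gave 6 class I genes, 2 peptide supply genes higher and 1 lower, 3 other class I-like genes higher and 2 lower, and 1798 genes in all; there Psmb9 was at -0.0849, Psmb10 at -0.331 and Irf1 at -0.0825. The cause of these changes was not tested.

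The labels do not state pairs, so the numbers were not taken as pairs. Same-numbered tumour and non-tumour libraries correlated at 0.35, -0.15, 0.29 and -0.12 in their deviations. The best partner of tumours 1, 2 and 4 was non-tumour 1, and that of tumour 3 was non-tumour 3. These values cannot decide on pairing, since tumour 2 and 4, and non-tumour 2, 3 and 4, are near-identical. With the replicate block on 8 separate libraries 0 genes passed, the smallest adjusted p was 0.0518 (H2-Q1), and Psmb10 was at -0.14. The count of class I genes whose profiles did not overlap was 7 under each scaling, against 9.19% to 10.4% of all genes, and 7 or 8 with 1 profile left out, against 14.8% to 24.4% of all genes. Scaled by library size alone, H2-Q10 took the place of H2-T23 among them. H2-Q2 had a larger log2 fold change than H2-Q1 with 1 library of each near-identical set (2.31 and 2.08) and without non-tumour 2, 3 and 4 (2.10 and 1.55). Depth limits H2-Q2 most, with 6 to 9 counts per non-tumour library.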

Other observations

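Markers of liver cells gave these log2 fold changes, tumour over non-tumour, none of which passed by edgeR after adjustment. Each pair holds the 2 largest differences among the list's genes with a mean of at least 1 CPM, and other members can go the other way: positive and negative values numbered 4 and 3 for hepatocytes, 4 and 6 for T and NK cells, 5 and 1 for B cells, 0 and 7 for leukocytes, 0 and 11 for macrophages, 3 and 1 for dendritic cells, 0 and 8 for sinusoidal endothelium, 6 and 2 for stellate cells, and 5 and 0 for cholangiocytes. The values were -0.69 for Cps1 and 0.56 for Apoa1 (hepatocyte), -0.91 for Cd4 and -0.56 for Lck (T and NK cell), 1.33 for Jchain and 0.50 for Cd79b (B cell), and -0.86 for Laptm5 and -0.61 for Rac2 (leukocyte). They were -1.53 for Adgre1 and -1.49 for Marco (macrophage), 0.89 for Itgax and 0.74 for Clec9a (dendritic cell), -0.75 for Cdh5 and -0.60 for Pecam1 (sinusoidal endothelium), 0.77 for Acta2 and -0.67 for Lrat (stellate cell), and 3.92 for Tspan8 and 2.10 for Spp1 (cholangiocyte). In non-tumour 1 the macrophage markers summed to 1030 CPM and the sinusoidal markers to 336 CPM. The other non-tumour libraries were at 341 to 344 and 143 to 148 CPM, and the tumour libraries at 306 to 448 and 160 to 209 CPM. Apart from non-tumour 1, no non-tumour library lay above the tumour range in these sums. Dendritic cell markers summed to 7.69 to 9.07 CPM in tumour and 5.45 to 8.67 CPM in non-tumour libraries, stellate cell markers to 202 to 245 and 199 to 208 CPM, and interferon-response genes to 834 to 924 and 637 to 724 CPM.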
